A study of Drosophila melanogaster with 2 samples.

Results

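The ZAD zinc finger genes described here are the 10 genes pad, M1BP, pita, ZIPIC, dwg, grau, wek, ouib, hang and trem, chosen by name from the 13945 protein-coding genes of the 6 chromosome arms in the Ensembl annotation, with 5 genes on 3R, 2 on 2R, 2 on X and 1 on 2L. ZAD is the zinc-finger associated domain, a zinc-binding fold near the amino terminus through which these proteins can form dimers. It is followed by C2H2 zinc fingers that contact DNA. The family is large in insects, and its members include proteins that hold chromatin boundaries, proteins that act at core promoters and factors used in the germ line or in steroid synthesis.

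Chromatin immunoprecipitation and sequencing (ChIP-seq) was done on 2 libraries of whole Drosophila melanogaster embryos aged 0 to 24 h, with males and females pooled. Both libraries came from one transgenic strain in which CG18476 carries eGFP, a green fluorescent protein, at its carboxyl end, and an antibody against GFP was used for the precipitation. They are biological replicates 1 and 2 of a single group, separate embryo samples of that strain, so no comparison between conditions exists. The reading is limited to what a tagged transgene in whole embryos recovers, averaged over tissues and ages, and an untagged strain was not analysed here. The summits, which are the highest points of the authors' peaks, were taken from 4 lists in build dm6: a thresholded set of 3995 reproducible peaks, a list of 30000 regions from the pooled reads, and a list of 30000 regions for each replicate. The signal is the authors' deposited value per peak, in their units. It was not scaled to a common depth and depth is unknown, so ranks within a list are given with it. In the thresholded set the signal ran from 60.6 to 1948 with a median of 98.2 and quartiles of 74.5 and 147, and all 3995 peaks were the 3995 strongest regions of the pooled list.

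CG18476 is itself a relative of the genes examined. In the protein translated from its longest coding sequence, 15 matches to the spacing of cysteines and histidines of a C2H2 finger were counted. Its first 120 residues also matched a spacing of 2 cysteine pairs, used here as a sign of a ZAD. At least 2 fingers and the cysteine pairs, called both patterns below, were found in 9 of the 10 members, while over the 10 the fingers numbered from 4 to 16 and the lengths ran from 312 residues in ouib to 2223 in hang. The exception was hang, in which the paired cysteines were not found in that stretch by these letters. The gene of the tagged protein carried a summit 150 bp upstream of its transcription start site (TSS). The pooled signal there was 319, that of replicate 1 was 133 and that of replicate 2 was 187.

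The DNA at some of these promoters, with and without a thresholded summit, is shown first. The pita promoter is not among them. Each run is read 5′ to 3′ on the strand of the named gene in the dm6 assembly of RefSeq, without exon bases. Capitals mark matches, on either strand, to 9 short motifs: the DNA replication-related element TATCGATA (DRE), its 7-base part ATCGATA, the BEAF-32 core CGATA inside both, the core GGTCACACT of Motif 1, which is the site M1BP is named for, the GAGA repeat GAGAG, the TATA-box letters TATAAA, the E-box CAGCTG, the Zelda site CAGGTAG and runs of 8 A. The first 4 runs lie at a region of the pooled list, at pad (chr3R:16342018-16342317, plus strand), between M1BP and CG8202 (chr3R:8731791-8732090, minus strand), between trem and idc (chr3R:20031480-20031779, minus strand) and at hang (chrX:16422531-16422830, plus strand). The summit is base 137 in pad, bases 217 and 15 in M1BP, base 151 in trem and base 55 in hang, whose region is below the threshold.
pad: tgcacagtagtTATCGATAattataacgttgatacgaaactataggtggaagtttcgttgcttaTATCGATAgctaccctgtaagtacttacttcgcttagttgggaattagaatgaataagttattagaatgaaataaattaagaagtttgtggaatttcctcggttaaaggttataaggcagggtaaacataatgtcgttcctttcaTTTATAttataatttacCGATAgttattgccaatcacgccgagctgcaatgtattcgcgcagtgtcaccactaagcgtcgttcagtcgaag
M1BP: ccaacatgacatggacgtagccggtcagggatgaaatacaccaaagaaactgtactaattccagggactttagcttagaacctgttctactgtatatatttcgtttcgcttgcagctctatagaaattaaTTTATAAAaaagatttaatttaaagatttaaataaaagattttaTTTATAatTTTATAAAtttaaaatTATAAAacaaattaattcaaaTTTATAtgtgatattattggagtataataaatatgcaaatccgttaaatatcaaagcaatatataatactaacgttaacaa
trem: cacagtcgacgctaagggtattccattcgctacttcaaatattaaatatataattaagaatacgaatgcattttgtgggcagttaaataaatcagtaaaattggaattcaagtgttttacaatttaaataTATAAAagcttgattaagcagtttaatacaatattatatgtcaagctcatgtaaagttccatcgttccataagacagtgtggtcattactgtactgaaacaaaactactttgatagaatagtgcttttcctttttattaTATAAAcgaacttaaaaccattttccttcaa
hang: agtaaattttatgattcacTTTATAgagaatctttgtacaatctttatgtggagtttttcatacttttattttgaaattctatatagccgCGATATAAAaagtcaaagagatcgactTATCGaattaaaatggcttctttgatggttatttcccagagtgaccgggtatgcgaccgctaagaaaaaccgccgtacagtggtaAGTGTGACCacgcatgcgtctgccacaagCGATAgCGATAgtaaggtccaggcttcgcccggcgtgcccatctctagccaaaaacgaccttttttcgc

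The next 3 runs lie just upstream of the TSS of members without any thresholded summit, wek (chr2L:15768350-15768629, minus strand), dwg (chrX:2727569-2727697, plus strand) and ZIPIC (chr3R:30036871-30037002, minus strand). The last is the promoter of the tagged gene CG18476 (chr3R:11678117-11678385, minus strand), with its summit at base 120.
wek: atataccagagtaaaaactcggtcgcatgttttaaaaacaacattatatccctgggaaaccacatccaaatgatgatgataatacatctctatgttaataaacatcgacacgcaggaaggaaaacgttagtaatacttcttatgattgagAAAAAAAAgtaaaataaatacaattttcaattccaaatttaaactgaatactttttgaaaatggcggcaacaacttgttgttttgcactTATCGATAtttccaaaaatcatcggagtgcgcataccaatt
dwg: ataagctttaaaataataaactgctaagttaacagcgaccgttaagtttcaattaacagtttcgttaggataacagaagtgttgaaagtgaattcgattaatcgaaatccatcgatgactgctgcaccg
ZIPIC: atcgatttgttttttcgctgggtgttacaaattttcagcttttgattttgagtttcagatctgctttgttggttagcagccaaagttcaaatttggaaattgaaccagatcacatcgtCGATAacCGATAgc
CG18476: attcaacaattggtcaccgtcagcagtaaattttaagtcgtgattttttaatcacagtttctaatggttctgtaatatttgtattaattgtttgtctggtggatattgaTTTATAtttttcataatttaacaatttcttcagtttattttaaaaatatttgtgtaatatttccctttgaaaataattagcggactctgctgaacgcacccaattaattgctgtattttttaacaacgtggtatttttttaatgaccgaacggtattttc

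The pad run has 2 full DREs, at bases 12 to 19 and 65 to 72, both further from the TSS than its summit. The M1BP run has no DRE and 7 matches to TATAAA, of which the one at bases 220 to 225 lies beside the stronger summit. The wek run has 1 DRE, at bases 240 to 247, but no listed region on it. The hang run has the Motif 1 core at bases 203 to 211, and the dwg run has none of the 9 motifs. A match is a string in a window and was not tested as a site.

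Of the 10 members, 4 had a thresholded summit in the gene body or within 2 kb of it: pad, M1BP, pita and trem. Over all 13945 protein-coding genes this was 31.3%. The same 4 had a promoter summit, defined as one within 500 bp of a TSS of the gene, against 17.7% of all protein-coding genes. The 4 windows held 7 thresholded summits, 3 at pita, 2 at M1BP and 1 each at pad and trem, and no summit lay in 2 member windows. Per 10 kb of window this was 0.896 summits for the members and 0.433 for all protein-coding genes, whose windows overlap and count a summit more than once. The median window was 6.19 kb for the members and 6.17 kb for all genes. The density, however, divides by the summed windows, 78.1 kb for the members and 152004 kb for all genes. Long genes therefore weigh more on it than on the median, and the 2 densities are not matched for gene length. The counts rest on 10 genes fixed by name, no test was applied, and nothing particular to the family is read from them.

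**Figure D1:**
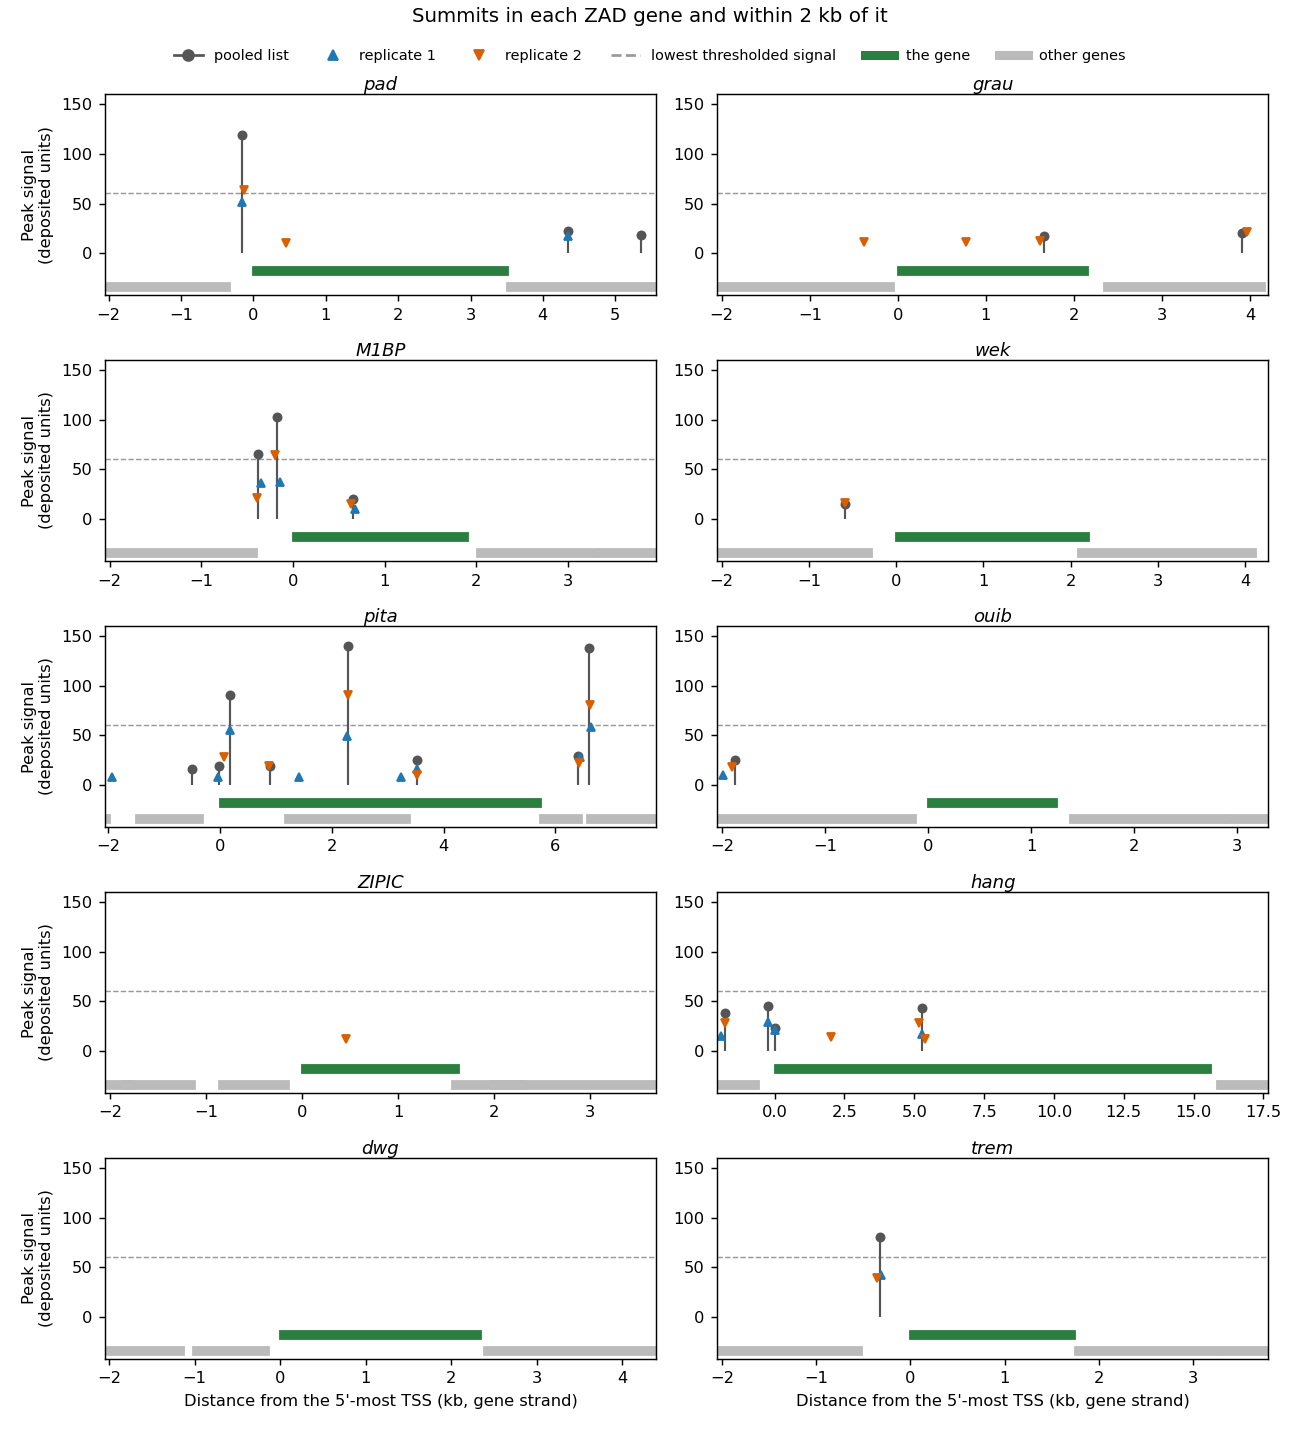
Signal of every listed summit (vertical axis, deposited units) against its distance in kb from the 5′-most TSS along the gene's strand (horizontal axis), for each of the 10 ZAD genes with 2 kb on either side. Lines with circles are the pooled list, triangles the replicates, the green bar the gene and grey bars other genes. The dashed line is the lowest thresholded signal of 60.6, a pooled value that does not apply to the replicate triangles. In the panels of pad, M1BP, pita and trem stems rise above the dashed line, and the other 6 panels have none.

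The members known from chromatin architecture are described first. The gene pita encodes a zinc finger protein of chromatin boundaries, for example in the bithorax complex, and it had the most summits. Its gene lies at 2R:23548967-23554712 on the minus strand, has 2 annotated TSSs and encloses Dcp-1, the gene of an effector caspase, on the other strand. The strongest of its 3 thresholded summits (peak 2R:23552203-23552632) had a pooled signal of 140 and rank 1095, with 49.5 in replicate 1 and 90.7 in replicate 2. That summit lay in a coding exon of Dcp-1 that is an intron of the longer pita transcript, 2294 bp downstream of the first pita TSS and 867 bp upstream of the second.

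Summits in a coding exon of any gene were rare in the set, with 23 of 3995 (0.576%). The next pita summit (2R:23547889-23548318) had a signal of 138, with 58.8 in replicate 1 and 80.7 in replicate 2, but belonged by position to a neighbour. It lay in the 5′ UTR of wmd, 47 bp from the wmd TSS and 3447 bp from the closest pita TSS, beside levy, which encodes a cytochrome c oxidase subunit. Only the weakest summit (2R:23554317-23554746) was at the pita promoter, 180 bp downstream of the first TSS in the 5′ UTR, with a pooled signal of 90.7 and rank 2250. In that peak replicate 1 was the higher, 55.1 against 28.7 in replicate 2, the reverse of the other pita peaks, and the summit in replicate 2 was shifted by 111 bp. Its rank was 1440 in replicate 1 and 5086 in replicate 2, so in replicate 2 it was not among the 3995 strongest regions.

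The other architectural members had little or nothing. ZIPIC, which encodes a zinc finger protein that binds the insulator cofactor CP190 (3R:30035240-30036870, minus strand), had no region in the pooled list or in replicate 1. Its sole region was in replicate 2, in its own coding exon 454 bp downstream of the TSS, with rank 20568 of 30000. The nearest thresholded summit was 6.46 kb from the gene, at the promoter of Sry-delta, another ZAD gene. The gene dwg encodes Zw5, a protein of the scs insulator (X:2727698-2730042, plus strand), and had no region in any of the 4 lists. The nearest thresholded summit was 2283 bp beyond it, 135 bp from the TSS of ttm50, where the pooled signal was 83.0 and the replicates had 26.6 and 52.9. That summit was also within 500 bp of a TSS of CG2712, whose protein matched both patterns of the family.

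M1BP encodes the protein that binds Motif 1 at core promoters. Its gene (3R:8729790-8731698, minus strand) faces CG8202, and the 2 TSSs are 393 bp apart. Both thresholded summits lay in the interval between them. The stronger (3R:8731659-8732088) was 176 bp upstream of the M1BP TSS with a pooled signal of 103 and rank 1865, 37.7 in replicate 1 and 64.5 in replicate 2. The weaker (3R:8731861-8732290) was 378 bp upstream of M1BP and 15 bp from the CG8202 TSS, with a pooled signal of 65.2 and rank 3615, 36.0 in replicate 1 and 21.5 in replicate 2, where its rank was 7668.

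The replicates disagreed on the balance of the M1BP pair. The 2 peaks overlap and the labels give fragments of 200 to 800 bp, so the 2 signals are not independent of each other. In replicate 1 the summits were nearly level, and in replicate 2 the one nearer M1BP was the higher by far. The stronger summit stood in very A+T-rich DNA, with a G+C content of 12.9% in the summit base and 50 bp on either side, where the median over all thresholded summits was 31.7% and 0.225% of them were at or below that value. Its partner had 48.5%. The M1BP promoter had no match to the Motif 1 core in the 300 bp upstream of its TSS. That core was found upstream of grau and hang among the members and upstream of 3.60% of all protein-coding genes.

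The members with roles in development or the germ line follow. The gene pad, poils au dos, encodes a repressor of bristle formation (3R:16342318-16345829, plus strand), and had 1 thresholded summit. The peak (3R:16341939-16342368) had a pooled signal of 119 and rank 1421, with 51.1 in replicate 1 and 63.7 in replicate 2, and its summit lay 164 bp upstream of the pad TSS. SF2, which encodes a splicing factor of the SR family, starts 330 bp away on the other strand, so the summit lay between the 2 TSSs, nearly midway. In replicate 2 the summit was 40 bp closer to pad. Within the pad gene itself the only listed region was in replicate 2, in a coding exon, with a signal of 10.4.

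The gene trem, trade embargo, is needed for the DNA breaks that start meiotic recombination (3R:20029560-20031309, minus strand), and had 1 thresholded summit. Its peak (3R:20031414-20031843) had a pooled signal of 80.8 and rank 2686, with 42.7 in replicate 1 and 39.3 in replicate 2, the closest pair of values among the member peaks. The summit was 320 bp upstream of trem but only 194 bp from idc, which starts 514 bp away in the other direction. The protein of idc also matched both patterns of the family, as did those of CG4424 and CG4854 on the other side of trem. The promoter summit was therefore shared by a divergent pair of ZAD genes.

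The gene hang, hangover, known for ethanol tolerance (X:16422831-16438454, plus strand), had no thresholded summit although it is the longest member, 15624 bp against 5746 bp or less in the others. Its strongest pooled region lay 246 bp upstream of the TSS with a signal of 45.5 and rank 5824, outside the set, whose lowest signal was 60.6. That region had 29.0 in replicate 1, rank 3950, and no matching region in replicate 2. A region in a hang intron, 5270 bp downstream of the TSS, had 43.2 in the pooled list, with 17.5 in replicate 1 and 28.7 in replicate 2.

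The remaining members had only regions of low rank. For grau, grauzone, which encodes an activator needed in female meiosis (2R:21009764-21011921, minus strand), the higher of 2 pooled regions had a signal of 20.5 and rank 17718, and replicate 1 had none. Its divergent neighbour CG9346 starts 49 bp away, and no pooled region lay within 500 bp of the grau TSS, where replicate 2 had 1 region with a signal of 10.8. For wek, weckle, whose protein takes part in Toll signalling (2L:15766133-15768349, minus strand), 1 pooled region with a signal of 15.1 and rank 28218 lay in a coding exon of Ku80, 582 bp upstream of the wek TSS. For ouib, ouija board, which encodes an activator in steroid hormone synthesis (3R:8725479-8726730, plus strand), the sole pooled region, with a signal of 24.9, lay in a coding exon of nom 1883 bp upstream. It had 10.5 in replicate 1 and 18.3 in replicate 2.

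**Figure D2:**
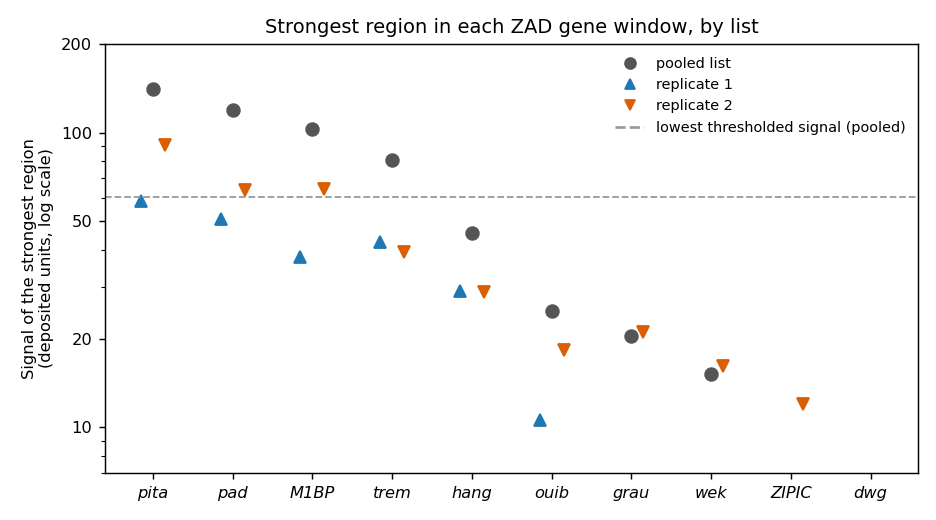
Signal of the strongest region in each gene window (vertical axis, deposited units, log scale) for the 10 ZAD genes (horizontal axis), in the pooled list (circles), replicate 1 (upward triangles) and replicate 2 (downward triangles), with a missing symbol where a list has no region. In the pooled list pita (140), pad (119), M1BP (103) and trem (80.8) are above the dashed line at 60.6, hang is at 45.5, and ZIPIC and dwg have no circle. The line is the lowest thresholded signal, a pooled value that does not apply to the replicate triangles.

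In the whole pooled list, which includes background regions by design, 8 of the 10 members had a region in their window, and the share of all protein-coding genes was 79.4%. Promoter regions were found at 5 members (50.1% of all genes). In the list of replicate 1, 6 members had a region (79.4% of all genes) and 5 had one at the promoter (51.7%). In the list of replicate 2, 9 members had a region (81.0%) and 6 had one at the promoter (47.7%). At this lenient level the members' shares were close to those of all genes in the pooled list, lower or close in replicate 1 and higher in replicate 2. With 10 genes, each of these differences comes to 2 genes or fewer. The density in the pooled list was 2.94 regions per 10 kb for the members and 2.73 for all genes.

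The promoter peaks of the members were ordinary in strength. Over the 2468 protein-coding genes with a promoter peak the median signal was 108. The pad signal was above 56.8% of them, M1BP above 45.8%, pita above 36.6% and trem above 26.1%. Of the 7 member summits, 4 were above the median of all thresholded peaks, and the median of the 7 was 103.

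The genes closest to pad were sought by the distance between log2 promoter signals over the 2 replicates. SF2 has the same summit and hence distance 0. CG13339 and fl(2)d, which share a summit, had 51.5 in replicate 1 and 63.5 in replicate 2. CG13807 and oxt, also with 1 summit between them, had 50.4 and 62.7. With 2 libraries this likeness says only that the signals were alike.

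All 7 member summits had a matching region in each replicate. Replicate 2 was the higher in 4 of the 7, at pad, the stronger M1BP summit, and the Dcp-1 and wmd summits of pita. The ratio of replicate 2 to replicate 1 ran from 0.522 to 1.83 with a median of 1.25. Over the 3513 thresholded peaks matched in both lists the median ratio was 1.24, with quartiles of 0.974 and 1.58. The strength order of the 7 was therefore not settled by the data: in replicate 1 the pita promoter peak was below the wmd peak alone, and in replicate 2 it was above the weaker M1BP peak alone.

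**Figure D3:**
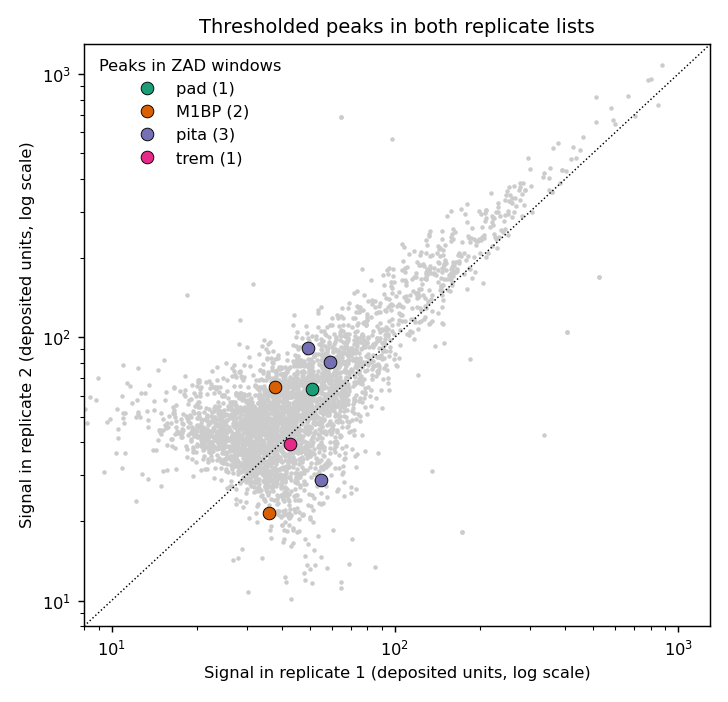
Signal in replicate 2 (vertical axis) against replicate 1 (horizontal axis), deposited units on log scales, for the 3513 thresholded peaks matched in both lists (grey) and the 7 peaks of the pad, M1BP, pita and trem windows (coloured, with the number of peaks in brackets). The dotted line is equality; 4 member peaks lie above it and 3 below, inside the grey cloud.

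Promoters were also split by whether a neighbour starts close by in the other direction. A divergent protein-coding partner, with its TSS within 1 kb upstream on the other strand, was present for 5 members, pad, M1BP, trem, grau and hang, and 3 of these 5 had a thresholded promoter summit. Of the 5 without such a partner, pita, ZIPIC, dwg, wek and ouib, only pita had one. Over all protein-coding genes, 33.3% had a divergent partner, and 31.5% of those had a promoter summit, against 10.8% of the genes without a partner. A window between 2 starts counts for both genes. This split was added after the values were seen and was not tested.

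Motifs in the 300 bp upstream of each member's first TSS were set beside the same window at all 13945 protein-coding genes. The DRE, bound by Dref, was present at pad, pita and wek, and at 8.59% of all genes. Its 7-base part was also found at ZIPIC, so 4 members had it (17.4% of all genes), and the BEAF-32 core at 5 members, hang included (46.4%). TATAAA was found at 6 members (48.0%) and runs of 8 A at wek and trem (16.5%). GAGAG (28.9%), the E-box (15.3%) and the Zelda site (1.80%) were found at none of the 10.

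Motifs were also sought within 50 bp of the 7 member summits. No full DRE lay there, and 1.38% of all thresholded summits had one. TATAAA lay at the stronger M1BP summit, the trem summit and the wmd summit of pita, 3 of 7, against 23.2% of all thresholded summits. The pita promoter summit had the 7-base part of the DRE (3.05% of all thresholded summits), the BEAF-32 core inside it (14.2%) and GAGAG (9.99%). The M1BP summit nearer CG8202 had the E-box (3.08%). Within 100 bp the DRE appeared at pad and at the wmd summit, against 3.10% of all. In that wider window the 7-base part was at 3 of the 7 summits, against 6.71% of all, and the BEAF-32 core at 4 of the 7, against 27.6%. These shares are over all thresholded summits, 47.3% of them in introns, while most of the 7 lay within 500 bp of a TSS. The comparison is therefore not matched for position, and nothing particular to the members is read from it. Of the 3 members with a DRE upstream of the first TSS, pad and pita had a thresholded promoter summit and wek had none. M1BP and trem had a promoter summit and no DRE there. The share of all promoters with a DRE that have a thresholded summit was not computed, so no link is read from this.

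Other genes of the family were examined by 2 routes. The first was a list of 15 further genes, chosen by name as ZAD genes and all matched to the annotation, of which 11 showed both protein patterns. The paired cysteines were not found in mld, Neu2, Phs and dany. No finger was found in dany either, so its place in the family is not borne out here. Of these 15, 5 had a thresholded summit in the window and 3 had a promoter summit, Sry-delta, D19B and Phs. Among the 11 with both patterns, 2 had a promoter summit, Sry-delta and D19B. The 5 are 33.3% of the list, against 31.3% of all protein-coding genes. The 3 of 15 at the promoter stand beside 17.7% of all protein-coding genes. The highest signals in their windows were 303 at Sry-delta, 156 at Phs and 144 at D19B and D19A, which have that summit in common. The Sry-delta value belonged to a peak 105 bp from the TSS of CG7943 and 3024 bp from that of Sry-delta, and it had no matching region in replicate 1 and 166 in replicate 2. Sry-delta encodes a known activator of bicoid, and its own promoter peak reached 103 in the pooled list, with 47.8 and 52.7 in the replicates. The Phs peak lay 120 bp from its TSS, and the replicates had 67.4 and 87.3. The summit at D19B and D19A lay 43 bp from the TSS of CG43293. Its peak had a signal of 84.2 in replicate 2 and no region in replicate 1 that met the same overlap. A missing match by this rule does not show that replicate 1 had no signal there.

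The second route took every gene with both protein patterns, 96 in all with CG18476. Outside the members and CG18476 there were 86, which include the 11 listed genes with both patterns. Of the 86, 37 (43.0%) had a thresholded summit in the window and 24 (27.9%) had a promoter summit, at 23 distinct summits. The share over all protein-coding genes was 31.3% and 17.7%, as given above. Their windows held 0.940 summits per 10 kb, with a median window of 6.19 kb, and this density is likewise not matched for gene length. Their promoter signals ran from 61.0 to 969 with a median of 103. The highest were at CG10147 (969, with 450.2 in replicate 1 and 516 in replicate 2), CG1792 (552, with 231 and 323) and prg (190.4, with 86.8 and 99.8), named after their values were seen. ZAD genes lie in clusters and share promoters, so these genes are not independent of each other. Nor are they fully separate from the members: the promoter summit of idc, which is among the 86, is the trem summit.

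**Figure D4:**
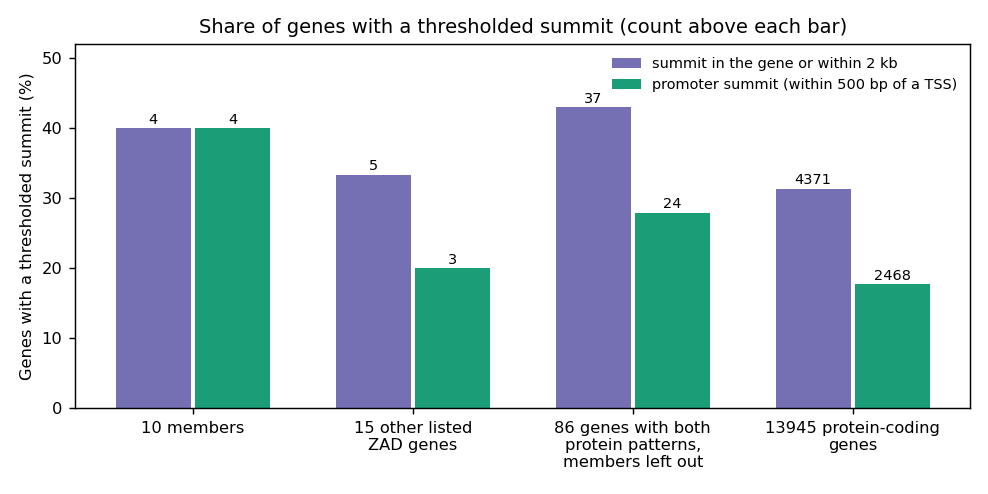
Share of genes with a thresholded summit in percent (vertical axis), by gene set. The sets are the 10 members, the 15 other genes listed as ZAD genes, the 86 further genes with both protein patterns and all 13945 protein-coding genes. Purple bars count summits in the gene or within 2 kb, and green bars summits within 500 bp of a TSS. The number of genes with such a summit stands above each bar. The members' bars are both at 40.0%, the 86 pattern genes at 43.0% and 27.9%, and all genes at 31.3% and 17.7%. The 15 other listed genes, with 33.3% in the window and 3 of 15 at the promoter, are the closest to all genes. The summit shared by trem and idc counts in the bars of the members and of the 86 pattern genes.

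Members of the family also sit side by side. Between nom and M1BP (3R:8723174-8731698, 8525 bp) lie 5 genes, nom, ouib, CG8159, ranshi and M1BP, and the proteins of all 5 matched both patterns. No thresholded summit fell inside that cluster, and the pooled list had 3 regions there. The windows of all protein-coding genes held 0.433 thresholded summits per 10 kb, so nothing particular is read from none in 8525 bp. Both M1BP summits lay just outside that cluster, which was drawn to end at the M1BP TSS, in the interval shared with CG8202. Between ZIPIC and Sry-delta (3R:30035240-30044886, 9647 bp) lie 7 genes, 3 of them with both patterns, and 1 thresholded summit, the one at the Sry-delta promoter.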

How the data were processed

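The members and lists were chosen with earlier results of these data known. Per the labels and the texts that accompany the files, the authors derived a region list from each replicate's alignments and one from both, each together with 1 further file whose role is not stated. They derived the thresholded set from these lists by the irreproducible discovery rate. No source used here names the aligner, the peak caller, their versions or the threshold. The signal and the -log10 q value of each peak are the authors' deposited values, and the latter, 2.31 to 3.71 in the thresholded set, was used only to describe it. Read depth is unknown from these lists, so no counting interval is given. The dm3 lists were not used.

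Positions are dm6, 1-based, and no peak ended beyond the reference arms. Genes came from the Ensembl annotation of the same assembly without transposable elements, and all 10 members matched by symbol. A thresholded peak was matched in a replicate to the region of greatest overlap, at least 0.5 of both lengths. All members are named, and of the other ZAD genes the 4 with the highest signal. The longest coding sequence of each gene was translated for the protein patterns, in place of the RefSeq proteins intended. The count over all genes with both patterns, the divergent split and the distances to the nearest summit outside a window were added after seeing the data. Counting was tested on simulated summits. With 1 group, no test between groups was possible, and none is reported. Python 3.11.15, NumPy 2.4.6, pandas 2.3.3 and Matplotlib 3.10.9 were used.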

Additional observations from a re-analysis of the deposited data

How the results depend on the processing

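The main counts, 4 members with a thresholded summit in the window, 7 summits, 0.896 summits per 10 kb and 4 members with a promoter summit, were recomputed under other choices. In the gene body alone, 1 member (pita) had 2 summits, 0.524 per 10 kb, against 10.4% of all protein-coding genes and 0.252 per 10 kb. Among the peaks above the median signal of the set, 4 summits were counted, 0.512 per 10 kb against 0.225 for all genes. In that set 3 members had a window summit (19.4% of all genes) and 2 members had a promoter summit (10.2%). The whole pooled list gave 8 members (79.4% of all genes) and 23 summits, and summits whose nearest TSS was the member's own numbered 4. With the strongest regions of 1 replicate alone, the window count ran from 4 to 5 members, the summits from 5 to 8, the density from 0.640 to 1.02 and the promoter count from 3 to 5. Over all genes, leaving out replicate 1 gave 31.0% in the window, 0.428 per 10 kb and 17.0% at the promoter. Leaving out replicate 2 gave 32.0%, 0.442 per 10 kb and 18.6%. Without replicate 2 hang was added, and without replicate 1 pita lost its promoter summit. Windows of 1 or 5 kb, peak midpoints, promoter distances of 250 or 1000 bp and the first TSS alone stayed within 1.5 times. With matching at 1 bp of overlap, replicate 2 at the weaker M1BP summit read 64.5 in place of 21.5, the value of its neighbour. Within 100 bp of the summits in place of 50 bp, the 7-base part of the DRE went from 1 to 3 of the 7 and the BEAF-32 core from 1 to 4. The 10 genes and 2 libraries of unknown depth limit all of these. No paired analysis was possible because there is 1 group.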
